A study of Mus musculus with 6 samples.

Results

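The genes described here are 36 antioxidant, glutathione and metallothionein genes of TRAMP-C2 cells, taken by symbol from a fixed list and matched to 1 gene identifier each among the 54446 genes of the count table. All 36 passed the filter on low counts that left 14956 genes for testing. TRAMP-C2 is an established prostate cancer cell line from a male C57BL/6 mouse carrying the TRAMP transgene. Cells were left untreated (control) or were exposed to oxaliplatin or cisplatin, each at 2 µM, for 24 h, and each group held 2 poly(A) RNA libraries. All 3 groups grew in the same medium with serum, bovine insulin and dehydroisoantrosterone, as the labels spell it, so that no group is free of these additions. The labels do not say that replicates came from separate cultures, and P values then measure only the spread between these libraries, which may be technical. Both drugs are platinum complexes that bind DNA. Cisplatin carries ammine and chloride ligands, and oxaliplatin a diaminocyclohexane and an oxalate ligand.

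Libraries held 21345312 to 24041767 counts, at which 3 counts equal 0.125 to 0.141 CPM (a count relative to its library's sum). Between replicates, the members differed by a median absolute log2 value of 0.067 without drug, 0.043 with oxaliplatin and 0.041 with cisplatin, and 30 of 36 were higher in control replicate 1 than in control replicate 2. The label of the line was checked against markers. Fkbp5 was detected, whereas the prostate gene Pbsn had 0 counts in all 6 libraries and the epithelial gene Epcam at most 1.97 normalised counts. The summed level of 4 epithelial markers was 626 and 661 without drug, 619 and 631 with oxaliplatin and 852 and 845 with cisplatin, and that of 4 mesenchymal markers (Vim, Fn1, Col1a1 and Zeb1) was 289222 and 280286 without drug, 268473 and 260048 with oxaliplatin and 247234 and 259246 with cisplatin. Within these sums the markers differed (DESeq2, adjusted p under 0.05). Vim was higher with both drugs (log2 fold change 0.12 with oxaliplatin and 0.28 with cisplatin), and Col1a1 was lower with both (-0.26 and -0.34). Fn1 was lower with cisplatin only (-0.26), and Zeb1 passed with neither drug. Of the epithelial markers only Cdh1 passed, higher with cisplatin (0.53). The part of these levels in the results below was not tested. Of the defining markers of leukocytes and endothelium, Ptprc, Cd3e and Cdh5 reached at most 1.02 normalised counts, Lyz2 2.08 and Pecam1 7.84. The macrophage marker Cd68 had 43.6 and 32.5 without drug, 32.5 and 30.7 with oxaliplatin and at least 49.1 with cisplatin.

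Cells meet oxidants and electrophiles with a shared transcriptional program. The transcription factor NRF2, product of Nfe2l2, is held in the cytoplasm and sent for degradation by KEAP1, a sensor protein with reactive cysteines. When these cysteines are modified, NRF2 accumulates, binds antioxidant response elements together with small MAF proteins, and raises enzymes that make glutathione, conjugate it to electrophiles, reduce thioredoxin and peroxides, supply NADPH and store iron. Glutathione is a tripeptide whose thiol reacts with platinum drugs, and metallothioneins are small cysteine-rich proteins that bind zinc, cadmium and platinum and are raised through the metal-sensing factor MTF1.

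Promoter letters are shown first. The list holds known NRF2 targets, and NRF2 binds antioxidant response elements, so the members may not have been chosen independently of these letters. RefSeq windows of GRCm38.p6, from 250 bases before to 50 bases after a gene's RefSeq start, were at hand for 30 of the 36 members. They were missing for Hmox1, Prdx6, Gclc, Gsr, Gsta4 and Abcc1. This start differed from that of the GENCODE annotation, which gives the gene coordinates here, by 3023 bases for Osgin1 and 772 for Tkt. The distance was 314 for G6pdx, 211 for Mgst1, 177 for Gpx1 and at most 73 for the other members with a window. The core of the antioxidant response element, TGACNNNGC on either strand, was present in 9 of the 30 windows (30.0%) and in 4071 of all 32851 windows (12.4%). For a member the window nearest the GENCODE start was taken, whereas the 32851 windows were not chosen this way. No test was made of the difference between these shares. Each match is printed in capitals with 10 bases on both sides, on the strand where it reads as the core.
Nfe2l2 (chr2:75704885-75704913, minus strand): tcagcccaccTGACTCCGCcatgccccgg
Srxn1 (chr2:152105542-152105570, minus strand): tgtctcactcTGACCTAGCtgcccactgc
Prdx1 (chr4:116685456-116685484, minus strand): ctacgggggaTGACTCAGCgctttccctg
Gclm (chr3:122245413-122245441, minus strand): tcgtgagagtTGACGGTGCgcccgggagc
Mgst1 (chr6:138140461-138140489, minus strand): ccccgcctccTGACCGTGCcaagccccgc
Sod1 (chr16:90220696-90220724, minus strand): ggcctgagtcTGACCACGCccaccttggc
G6pdx (chrX:74428919-74428947, plus strand): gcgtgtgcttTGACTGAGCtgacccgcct
Me1 (chr9:86695902-86695930, minus strand): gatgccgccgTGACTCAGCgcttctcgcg
Mt2 (chr8:94172529-94172557, plus strand): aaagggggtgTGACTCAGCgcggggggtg
The matches of Prdx1, Me1 and Mt2 hold TGACTCA, which is also the letters of an AP-1 site. The match of Me1 spans the RefSeq start, and that of Srxn1 lies 29 bases into the transcribed side. The other 7 lie upstream of the RefSeq start. By GENCODE coordinates the matches of Srxn1, Me1, Mgst1 and G6pdx lie inside the gene. A match is a description of letters and not a measured site.

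**Figure D1:**
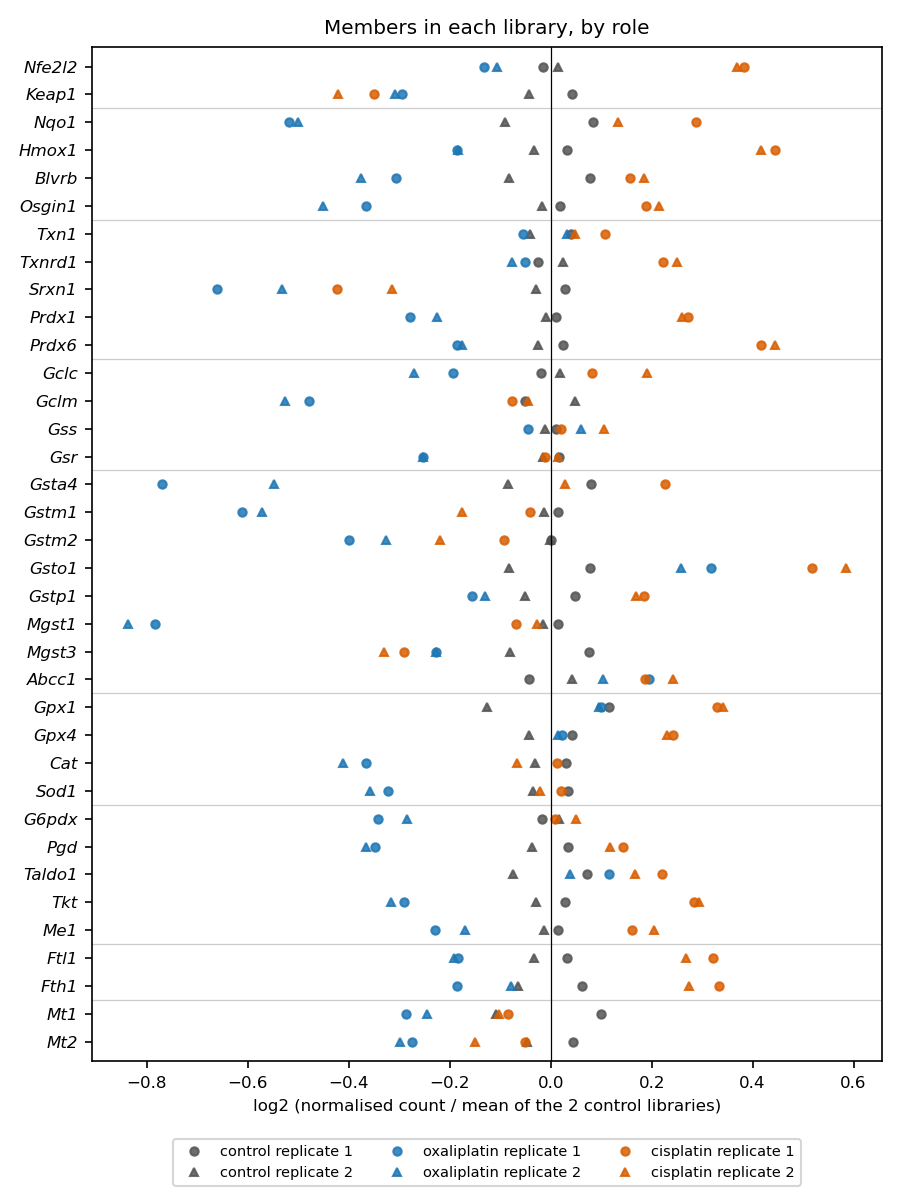
Normalised count of each of the 36 members in each of the 6 libraries, as log2 of its ratio to the mean of the 2 control libraries (x axis), with grey lines between roles. Blue points (oxaliplatin) lie left of the orange points (cisplatin) for most members, and Mgst1, Gsta4, Srxn1 and Gstm1 lie farthest left in oxaliplatin cells.

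Most members were lower in oxaliplatin cells than in control cells. DESeq2 called 27 of 36 at an adjusted p of 0.05, 25 as lower and 2, Gsto1 and Abcc1, as higher. The Benjamini-Hochberg adjustment took the genes that passed independent filtering, which all 36 members did. Of all 14956 genes, 9.5% were called lower and 10.7% higher, and among the 7978 genes at least as abundant as the least abundant member 15.0% were called lower and 18.3% higher. The median log2 fold change of the members was -0.25, beside -0.0029 over all genes tested. In these bulk libraries, fewer cells of a type and less RNA per cell cannot be told apart. The largest fall was that of Mgst1, to 0.57 times its control level. Leaving out 1 library lowered the count of called members, to 16 without control replicate 1, to 15 without oxaliplatin replicate 1 and to 22 at most.

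Cisplatin was compared with the same control libraries, which both contrasts therefore share. Of the 36 members 18 were called, 16 of them higher and 2, Keap1 and Srxn1, lower. Of all genes 15.7% were called higher and 12.4% lower, and of the genes at least as abundant as the least abundant member 26.2% higher and 16.8% lower. The median log2 fold change of the members was 0.15, beside -8.3e-04 over all genes. Scaling by total counts shifted the calls over all genes from 2355 higher and 1848 lower to 1826 higher and 2382 lower, and those of the members to 14 higher and 4 lower.

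The direct comparison of the drugs at the same dose and time takes its difference from the 4 drug libraries, and the control libraries enter the filter, the scaling and the estimate of spread. Of the 36 members 28 were called, and each was lower with oxaliplatin. The median log2 difference of the members was -0.35 (all genes, -0.0033). No member was called higher in oxaliplatin cells by DESeq2 or by edgeR's quasi-likelihood test, which called 29 lower (all genes, 2304 higher and 2469 lower). In DESeq2 30 members had an unadjusted p under 0.05, as did 4269 of all 14956 genes tested. Among genes at least as abundant as the least abundant member it was 3404 of 7978. Of all genes 11.3% were called lower and 8.62% higher in oxaliplatin than in cisplatin cells, and of the genes at least as abundant as the least abundant member 19.1% and 13.1%. Under total-count scaling the calls over all genes moved from 1289 higher and 1688 lower to 1619 higher and 1362 lower, while 26 members were called, all lower. Leaving out any 1 library left 22 to 26 called members.

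**Figure D2:**
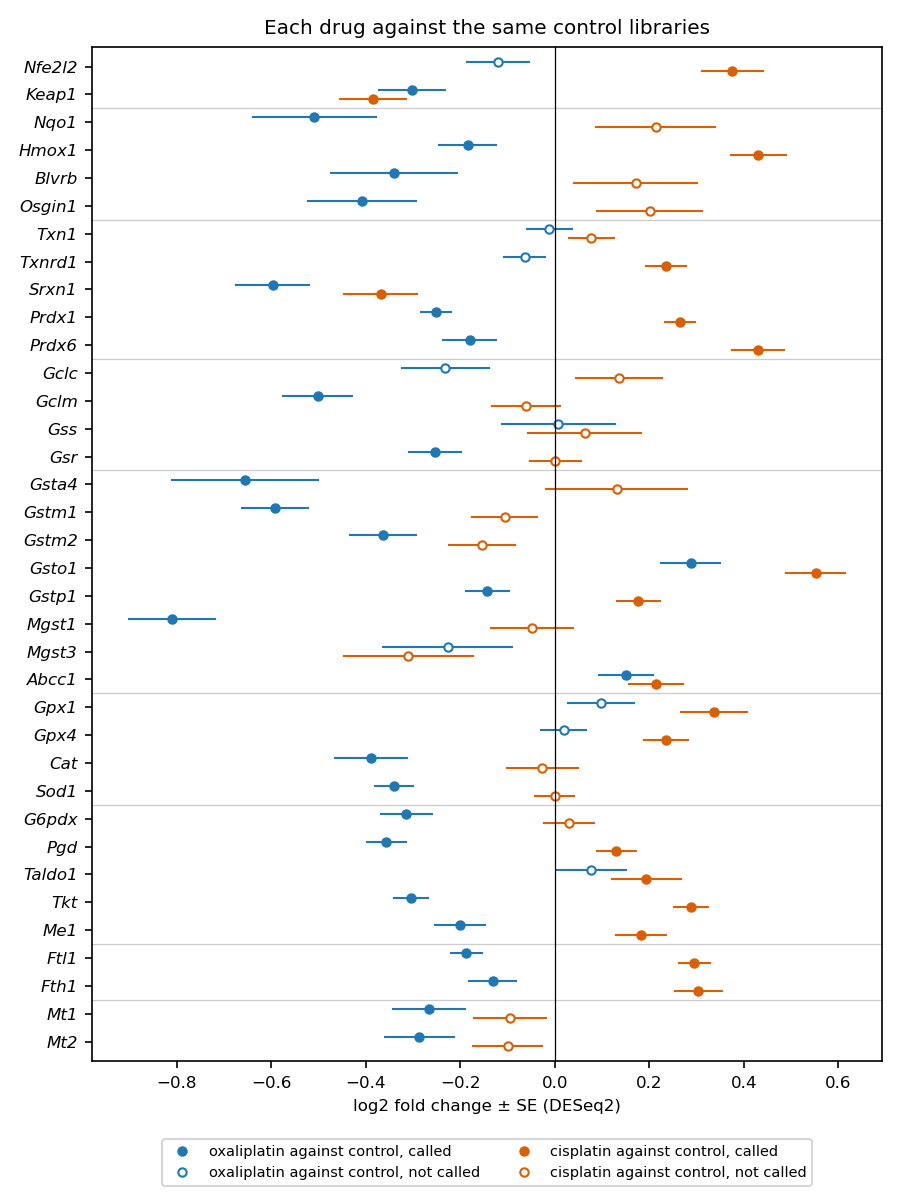
DESeq2 log2 fold change of each member in oxaliplatin (blue) and cisplatin (orange) cells against the same 2 control libraries, with bars of 1 SE; filled points passed an adjusted p of 0.05. Blue points lie between -0.81 (Mgst1) and 0.29 (Gsto1), and orange points between -0.38 (Keap1) and 0.55 (Gsto1).

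Nfe2l2, which encodes NRF2 (ENSMUSG00000015839, chromosome 2, 75675513 to 75704641, minus strand), rose with cisplatin. Its normalised counts were 1690.4 and 1724 without drug, 1559 and 1585 with oxaliplatin and 2226 and 2205 with cisplatin. Cisplatin libraries lay above and oxaliplatin libraries below both control libraries. Such separation is frequent with 2 libraries a group. Of 14956 genes tested, both oxaliplatin libraries lay above control in 4796 and below it in 4889. With cisplatin these were 5171 and 5208, and for oxaliplatin against cisplatin 5011 and 5153. Here and below, separation without a call is therefore only a description. The log2 fold change of Nfe2l2 was 0.38 ± 0.066 (SE) with cisplatin (DESeq2 adjusted p = 2.04e-07) and -0.12 ± 0.067 with oxaliplatin (adjusted p = 0.200, not called). By edgeR's quasi-likelihood test the latter was called lower (adjusted p = 0.0454). The drugs differed by -0.50 on the log2 scale (95% interval -0.63 to -0.37, DESeq2 adjusted p = 4.20e-12). Keap1, the gene of the NRF2 inhibitor (ENSMUSG00000003308, chromosome 9, 21229730 to 21239361, minus strand), had normalised counts of 2116 and 1995 without drug, 1676 and 1659 with oxaliplatin and 1614 and 1535 with cisplatin. All 4 libraries of treated cells lay below both control libraries. Keap1 fell by 0.30 on the log2 scale with oxaliplatin (DESeq2 adjusted p = 2.66e-04) and by 0.38 with cisplatin (adjusted p = 1.36e-06), and the drugs did not differ detectably (log2 difference 0.083, 95% interval -0.060 to 0.23). Without control replicate 1 the oxaliplatin call of Keap1 was lost (adjusted p = 0.0536). Keap1 may share reads with other loci, since its estimated counts held fractions in all 6 libraries.

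Of the classic NRF2 targets for haem and quinones, all 4 were lower with oxaliplatin, 1 was higher with cisplatin, and all 4 were lower with oxaliplatin than with cisplatin. Hmox1, which encodes the haem-degrading enzyme heme oxygenase 1 (ENSMUSG00000005413, chromosome 8, 75093621 to 75100589), had normalised counts of 2257 and 2156 without drug, 1940.3 and 1943 with oxaliplatin and 3001 and 2947 with cisplatin. The 3 groups did not overlap. It rose to 1.35 times control with cisplatin (log2 fold change 0.43 ± 0.061, DESeq2 adjusted p = 4.25e-11) and fell to 0.88 times control with oxaliplatin (log2 fold change -0.18 ± 0.062, adjusted p = 0.0160). The call with oxaliplatin was lost without any 1 of the 6 libraries (adjusted p up to 0.250), whereas the drugs' difference of -0.61 ± 0.061 (adjusted p = 1.36e-21) was called in each of these fits. Nqo1 encodes a quinone reductase that is widely used as a readout of NRF2 (ENSMUSG00000003849, chromosome 8, 107388225 to 107403206, minus strand). Its counts were 589 and 522 without drug, 388 and 393 with oxaliplatin and 678 and 609.8 with cisplatin. It fell with oxaliplatin (-0.51 ± 0.13 on the log2 scale, DESeq2 adjusted p = 9.65e-04), and its change with cisplatin was 0.21 ± 0.13 (adjusted p = 0.207, not called). The oxaliplatin call of Nqo1 did not hold without control replicate 1 or without oxaliplatin replicate 1 (adjusted p up to 0.0937).

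Osgin1 and Blvrb complete this group. Osgin1, an oxidative stress-induced growth inhibitor, had counts of 601 and 586 without drug, 460.5 and 434 with oxaliplatin and 676 and 689 with cisplatin, a log2 fold change of -0.41 ± 0.12 with oxaliplatin (DESeq2 adjusted p = 0.00320) and of 0.20 ± 0.11 with cisplatin (adjusted p = 0.171, not called, though edgeR's quasi-likelihood test called it higher). Blvrb, which encodes biliverdin reductase B, had counts of 484 and 433 without drug, 370.4 and 353 with oxaliplatin and 511 and 521 with cisplatin. In both genes the oxaliplatin libraries lay below and the cisplatin libraries above the control libraries. The fall of Blvrb with oxaliplatin was at the threshold (-0.34 ± 0.14, adjusted p = 0.0486) and was lost without any 1 library (adjusted p up to 0.411), and its difference between drugs (-0.51) without any 1 of the 4 drug libraries (adjusted p up to 0.0979). The oxaliplatin call of Osgin1 was lost without any 1 of the 4 libraries compared (adjusted p up to 0.172).

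Among the 5 thioredoxin and peroxiredoxin genes, which reduce protein thiols and peroxides, 3 were lower with oxaliplatin, 3 were higher and 1 lower with cisplatin, and 4 were lower with oxaliplatin than with cisplatin. Prdx1, a cytosolic peroxiredoxin, had normalised counts of 17130.4 and 16901 without drug, 14035 and 14557 with oxaliplatin and 20558 and 20364 with cisplatin, and Prdx6, a peroxiredoxin reduced by glutathione, had 2540.3 and 2457 without drug, 2198 and 2214 with oxaliplatin and 3334 and 3401 with cisplatin. In both the 3 groups did not overlap, with oxaliplatin lowest and cisplatin highest. Prdx1 changed by -0.25 ± 0.034 (log2) with oxaliplatin (DESeq2 adjusted p = 1.02e-11) and by 0.27 ± 0.034 with cisplatin (adjusted p = 1.93e-13). Prdx6 changed by -0.18 ± 0.058 (adjusted p = 0.0114) and 0.43 ± 0.057 (adjusted p = 1.66e-12), and its oxaliplatin call was lost without any 1 library (adjusted p up to 0.213). The drugs differed by -0.52 for Prdx1 and -0.61 for Prdx6. Txnrd1, the cytosolic thioredoxin reductase, had counts of 5227 and 5415 without drug, 5137 and 5048 with oxaliplatin and 6210.3 and 6326 with cisplatin. It rose with cisplatin (0.24 ± 0.045, DESeq2 adjusted p = 1.86e-06), and its log2 fold change with oxaliplatin was -0.063 ± 0.045 (adjusted p = 0.341, not called).

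Srxn1, which encodes sulfiredoxin, the enzyme that repairs overoxidised peroxiredoxins, fell with both drugs. Its counts were 2198 and 2110.4 without drug, 1362 and 1489 with oxaliplatin and 1607 and 1731 with cisplatin. Both drug groups lay below control, with a change of -0.60 ± 0.079 on the log2 scale with oxaliplatin (DESeq2 adjusted p = 2.86e-12) and -0.37 ± 0.079 with cisplatin (adjusted p = 2.95e-05). The difference between the drugs was -0.23 (adjusted p = 0.0221), and this call was lost under total-count scaling and without any 1 library (adjusted p up to 0.400 without 1 library). Thioredoxin itself (Txn1) had 9174 and 8681 without drug, 8592 and 9127 with oxaliplatin and 9616 and 9225 with cisplatin. Control and oxaliplatin overlapped, both cisplatin libraries were slightly higher, no contrast was called, and the 95% interval of its drug difference was -0.19 to 0.0077 on the log2 scale.

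Glutathione is made by the glutamate-cysteine ligase of GCLC and GCLM and by the synthetase GSS, and its oxidised form is recycled by the reductase GSR. With oxaliplatin, 2 of these 4 genes were called, both lower. With cisplatin none was called by DESeq2 or by edgeR's quasi-likelihood test, and 0 had an unadjusted p under 0.05. Gclm, the modifier subunit (ENSMUSG00000028124, chromosome 3, 122245557 to 122270732), had normalised counts of 1814 and 1942 without drug, 1348 and 1305 with oxaliplatin and 1781 and 1821 with cisplatin. It fell to 0.706 times control with oxaliplatin (log2 fold change -0.50 ± 0.074, DESeq2 adjusted p = 5.79e-10), and both cisplatin libraries lay close to control replicate 1. Gclc, the catalytic subunit, had 981 and 1007 without drug, 869 and 824 with oxaliplatin and 1052 and 1134 with cisplatin. Its oxaliplatin libraries lay below control, with a log2 fold change of -0.23 ± 0.094 that was not called by DESeq2 (adjusted p = 0.0547) but was called by edgeR's quasi-likelihood test, and its drug difference of -0.37 was called (adjusted p = 7.74e-04). Of the fits without 1 library, this call was lost without oxaliplatin replicate 2 and without cisplatin replicate 2 (adjusted p up to 0.119).

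Gsr had counts of 2809 and 2749 without drug, 2332 and 2331 with oxaliplatin and 2758 and 2806 with cisplatin, so that control and cisplatin overlapped and oxaliplatin lay below both. Its log2 fold change with oxaliplatin was -0.25 ± 0.057 (DESeq2 adjusted p = 1.11e-04) and the drugs differed by -0.25 (adjusted p = 1.05e-04). Gss had 523 and 515 without drug, 503 and 541 with oxaliplatin and 526 and 559 with cisplatin, where oxaliplatin overlapped with both other groups, with no call in any contrast and a 95% interval of the drug difference of -0.29 to 0.18. Gss shares exons on the opposite strand with Acss2, and whether the counting used strand is not given in the sources used here.

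Glutathione transferases join glutathione to electrophiles, and the transporter of Abcc1 exports the conjugates. Of these 8 genes, 5 were lower and 2 higher with oxaliplatin, while cisplatin gave 3 higher and 0 lower (5 of the 8 had an unadjusted p under 0.05, and edgeR's quasi-likelihood test called 3 higher and 2 lower). Mgst1, a microsomal transferase that also reduces lipid peroxides (ENSMUSG00000008540, chromosome 6, 138140316 to 138156755), had normalised counts of 1121 and 1099 without drug, 644 and 621 with oxaliplatin and 1058 and 1089 with cisplatin. The oxaliplatin libraries were far below the other 4. Its log2 fold change was -0.81 ± 0.093 with oxaliplatin (DESeq2 adjusted p = 1.97e-16) and -0.048 ± 0.089 with cisplatin (adjusted p = 0.742, not called), and the drugs differed by -0.76 (95% interval -0.94 to -0.58, adjusted p = 1.51e-14). Gsta4, an alpha-class transferase for the lipid aldehyde 4-hydroxynonenal (ENSMUSG00000032348, chromosome 9, 78182774 to 78209349), had 484 and 432 without drug, 268 and 313 with oxaliplatin and 535 and 467 with cisplatin. It fell by 0.66 on the log2 scale with oxaliplatin (DESeq2 adjusted p = 2.64e-04), a call lost without oxaliplatin replicate 1 (adjusted p = 0.0686), and had the largest drug difference of the members (-0.79 ± 0.16, adjusted p = 6.76e-06).

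The mu-class genes Gstm1 and Gstm2 lie near each other (chromosome 3, 107981702 to 107986453 for Gstm2 and chromosome 3, 108012255 to 108017973 for Gstm1). Gstm1 had counts of 2409 and 2363 without drug, 1562 and 1605 with oxaliplatin and 2319 and 2113 with cisplatin, and Gstm2 had 2278 and 2275 without drug, 1727 and 1815 with oxaliplatin and 2135 and 1956 with cisplatin. In both, oxaliplatin libraries were lowest and control libraries highest. With oxaliplatin Gstm1 changed by -0.59 ± 0.072 (DESeq2 adjusted p = 1.70e-14) and Gstm2 by -0.36 ± 0.072 (adjusted p = 7.54e-06), and with cisplatin neither was called by DESeq2 (-0.11 and -0.15). With cisplatin Gstm2 was called lower by edgeR's quasi-likelihood test and under total-count scaling. It was also called lower after removal of the trend with transcript length and GC content or of that with gene span (adjusted p down to 0.00559 over these fits). Gstm1 was called lower with cisplatin after removal of the trend with transcript length and GC content (adjusted p = 0.0457). The drug difference of Gstm2 (-0.21, adjusted p = 0.0201) was lost under total-count scaling and without any 1 library other than cisplatin replicate 2 (adjusted p up to 0.412). Related mu-class genes share sequence, and the estimated counts of both genes held fractions in 5 or 6 libraries, so that the split of reads between them is uncertain.

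Gsto1, an omega-class transferase with a cysteine in its active site (ENSMUSG00000025068, chromosome 19, 47854970 to 47864790), was the member with the highest rise in both drug groups. Its counts were 3616 and 3236 without drug, 4269 and 4095 with oxaliplatin and 4906 and 5139.7 with cisplatin, with no overlap between groups. The log2 fold change was 0.29 ± 0.065 with oxaliplatin (DESeq2 adjusted p = 9.90e-05) and 0.55 ± 0.065 with cisplatin (adjusted p = 6.13e-16). Oxaliplatin cells were below cisplatin cells (log2 difference -0.26, adjusted p = 3.75e-04), a call that was lost without oxaliplatin replicate 2 or without cisplatin replicate 2 (adjusted p up to 0.0536). Gstp1, the pi-class transferase, had 7240.0 and 6759.7 without drug, 6280.4 and 6400.2 with oxaliplatin and 7955 and 7872 with cisplatin, with -0.14 ± 0.047 on the log2 scale with oxaliplatin (DESeq2 adjusted p = 0.0133) and 0.18 ± 0.047 with cisplatin (adjusted p = 0.00100). The oxaliplatin call of Gstp1 held without control replicate 2 and was lost without any other 1 library (adjusted p up to 0.283), and its cisplatin call was lost without control replicate 2 or cisplatin replicate 1 (adjusted p up to 0.0788).

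Abcc1 had 3229 and 3423 without drug, 3807 and 3576 with oxaliplatin and 3785 and 3933 with cisplatin. It was called higher with cisplatin (0.21 ± 0.060, DESeq2 adjusted p = 0.00197) and, at the threshold, with oxaliplatin (0.15 ± 0.060, adjusted p = 0.0478). The latter call was lost under total-count scaling and without any 1 library (adjusted p up to 0.522) and the former without control replicate 1 or cisplatin replicate 2 (adjusted p up to 0.110). DESeq2 did not call the drug difference of Abcc1 (95% interval -0.18 to 0.053). Abcc1 was called lower with oxaliplatin once the trend with transcript length and GC content or that with gene span was removed. Mgst3 had 477 and 429 without drug, 387 and 387 with oxaliplatin and 371 and 360.2 with cisplatin, below control in all 4 treated libraries, with no call by DESeq2 in any contrast (adjusted p = 0.246 with oxaliplatin and 0.0745 with cisplatin), calls as lower with both drugs by edgeR's quasi-likelihood test, and a wide interval for the drug difference (-0.19 to 0.36).

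**Figure D3:**
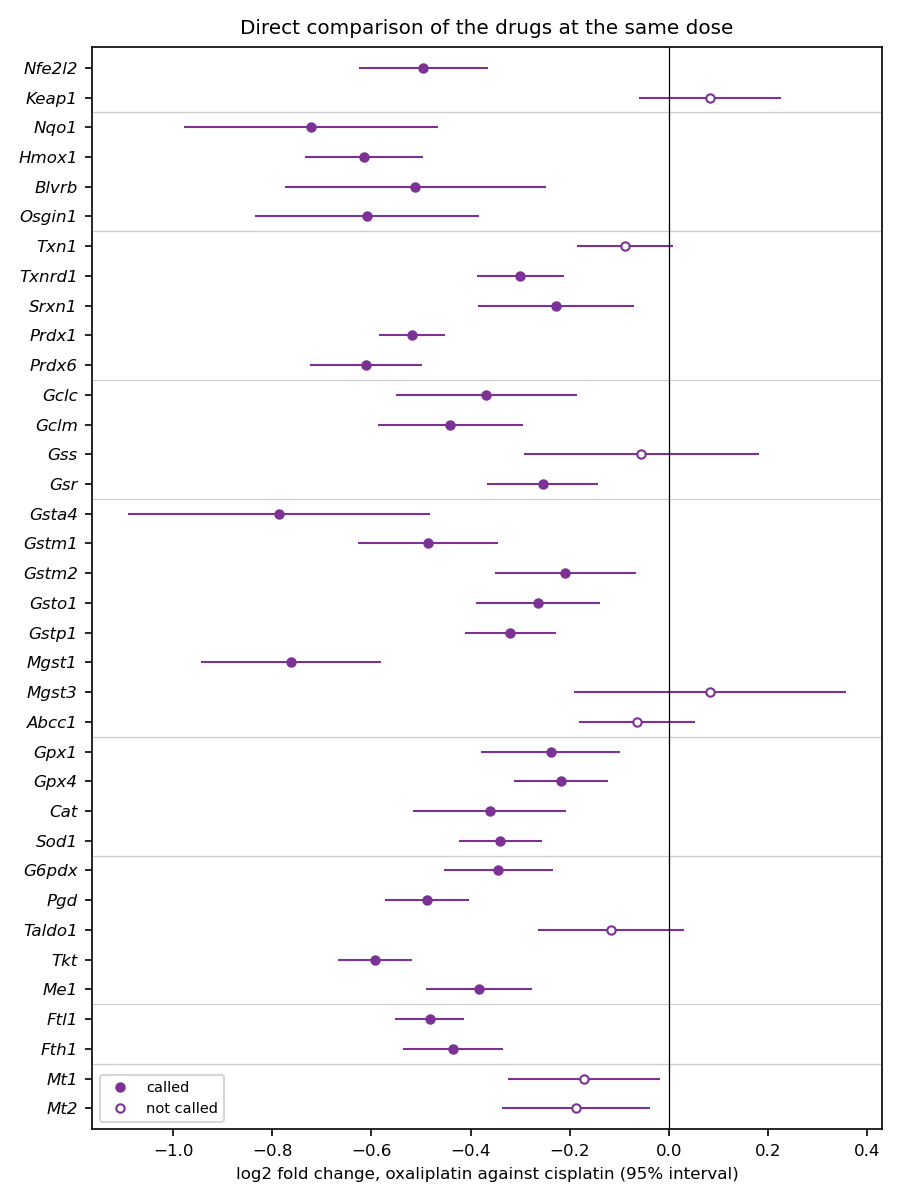
DESeq2 log2 difference between oxaliplatin and cisplatin cells for each member, with its 95% interval; negative values are lower in oxaliplatin cells and filled points passed an adjusted p of 0.05. All 28 filled points lie left of 0, from -0.79 (Gsta4) to -0.21 (Gstm2), and the 8 open points are Keap1, Txn1, Gss, Mgst3, Abcc1, Taldo1, Mt1 and Mt2.

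Among the enzymes that remove hydrogen peroxide and superoxide, the glutathione peroxidases Gpx1 and Gpx4 were higher than control with cisplatin, and catalase (Cat) and the cytosolic superoxide dismutase (Sod1) were lower than control with oxaliplatin. All 4 were lower with oxaliplatin than with cisplatin in the direct test. Sod1 had normalised counts of 9673 and 9225 without drug, 7554 and 7374 with oxaliplatin and 9581 and 9315 with cisplatin, and Cat had 1606 and 1541 without drug, 1221 and 1184 with oxaliplatin and 1588 and 1502 with cisplatin. In both the oxaliplatin libraries lay below the other 4, which overlapped. The log2 fold change with oxaliplatin was -0.34 ± 0.043 for Sod1 (DESeq2 adjusted p = 1.41e-13) and -0.39 ± 0.078 for Cat (adjusted p = 1.07e-05). With cisplatin these values were -7.1e-05 (adjusted p = 1.00) and -0.026 (adjusted p = 0.846).

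Gpx4, the peroxidase that reduces lipid hydroperoxides in membranes, had counts of 4753 and 4484 without drug, 4694 and 4662 with oxaliplatin and 5461 and 5416 with cisplatin. Control and oxaliplatin libraries overlapped, and both cisplatin libraries were higher (0.24 ± 0.049 on the log2 scale against control, DESeq2 adjusted p = 1.47e-05). Gpx1 had 4992 and 4219 without drug, 4935 and 4923 with oxaliplatin and 5789.8 and 5839 with cisplatin, which includes the largest gap between control replicates among the members, 0.243 on the log2 scale. It was higher with cisplatin than in control cells (0.34 ± 0.072, DESeq2 adjusted p = 2.84e-05). With oxaliplatin it was not called (0.098 ± 0.072, adjusted p = 0.356), but without control replicate 1 it was called higher (log2 fold change 0.23, adjusted p = 0.00232). The drugs differed by -0.24 for Gpx1 (adjusted p = 0.00579), a call that was lost without any 1 of the 4 drug libraries (adjusted p up to 0.0753), and by -0.22 for Gpx4 (adjusted p = 1.02e-04).

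NADPH, which drives the reduction of glutathione and thioredoxin, is supplied by the pentose phosphate pathway and by malic enzyme. Of these 5 genes, 4 were lower with oxaliplatin, 4 were higher with cisplatin, and 4 were lower with oxaliplatin than with cisplatin. G6pdx, the glucose-6-phosphate dehydrogenase of the first step, had normalised counts of 3305 and 3381 without drug, 2638 and 2744 with oxaliplatin and 3365 and 3463 with cisplatin. Control and cisplatin overlapped, and oxaliplatin was lower (-0.31 ± 0.056, DESeq2 adjusted p = 3.98e-07). Pgd, the phosphogluconate dehydrogenase, had 7910.4 and 7528 without drug, 6067 and 5991 with oxaliplatin and 8523 and 8378 with cisplatin, and transketolase (Tkt) had 10963 and 10535 without drug, 8787 and 8628 with oxaliplatin and 13079 and 13184 with cisplatin. Both genes were lowest with oxaliplatin and highest with cisplatin, without overlap. Tkt changed by -0.30 ± 0.038 on the log2 scale with oxaliplatin (DESeq2 adjusted p = 1.41e-13) and by 0.29 ± 0.038 with cisplatin (adjusted p = 8.64e-13), and the drugs differed by -0.59 (95% interval -0.67 to -0.52). Pgd changed by -0.36 ± 0.044 (adjusted p = 1.84e-14) and 0.13 ± 0.043 (adjusted p = 0.0104), the latter a call lost under total-count scaling and without any 1 library other than control replicate 1 (adjusted p up to 0.218).

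Malic enzyme 1 (Me1) had 3371 and 3307 without drug, 2849 and 2969 with oxaliplatin and 3733 and 3848 with cisplatin. Its log2 fold change was -0.20 ± 0.055 with oxaliplatin (DESeq2 adjusted p = 0.00214) and 0.18 ± 0.054 with cisplatin (adjusted p = 0.00390). The first of these calls was lost without control replicate 1 or oxaliplatin replicate 1 (adjusted p up to 0.177) and the second without control replicate 2 or either cisplatin library (adjusted p up to 0.166). Transaldolase (Taldo1) had 2024 and 1828 without drug, 2085 and 1977 with oxaliplatin and 2243 and 2162 with cisplatin. Its call with cisplatin (0.19 ± 0.075, adjusted p = 0.0339) was lost under total-count scaling and without any 1 library other than control replicate 1 (adjusted p up to 0.402), and the interval of its drug difference was -0.26 to 0.030. G6pdx shares exons on the opposite strand with Ikbkg, whose mean count was 1005, so reads of the pair may be mixed if strand was not used.

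Ferritin stores iron in a shell of light and heavy chains. Ftl1, the light chain, had normalised counts of 35832 and 34278 without drug, 30884 and 30700.2 with oxaliplatin and 43831 and 42223 with cisplatin, and Fth1, the heavy chain with ferroxidase activity, had 29433 and 26952 without drug, 24779 and 26715 with oxaliplatin and 35529.7 and 34093 with cisplatin. In both genes oxaliplatin was lowest and cisplatin highest, and no libraries of different groups overlapped. Both rose with cisplatin, Ftl1 by 0.30 ± 0.035 (DESeq2 adjusted p = 2.69e-15) and Fth1 by 0.30 ± 0.052 (adjusted p = 6.33e-08) on the log2 scale. With oxaliplatin Ftl1 fell (-0.19 ± 0.035, adjusted p = 2.19e-06), and Fth1 was at the threshold (-0.13 ± 0.052, adjusted p = 0.0455), a call lost by edgeR's quasi-likelihood test, without control replicate 1, without oxaliplatin replicate 1 or without either cisplatin library (adjusted p up to 0.476). The drugs differed by -0.48 for Ftl1 (adjusted p = 9.63e-40) and -0.44 for Fth1 (adjusted p = 2.37e-15). Per kb of annotated exon Ftl1 was the most abundant member in control cells, at 26160.5 normalised counts per kb, followed by Txn1 (8494), Fth1 (8127) and Prdx1 (5592), and the order ended with Gss (87.8). Both ferritin genes and Prdx1 had fractional estimated counts in 5 or 6 libraries, as reads shared with near-identical loci give. The same held for Txn1, Gstp1, Gpx4, Sod1, G6pdx, Taldo1, Me1 and Mt2.

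**Figure D4:**
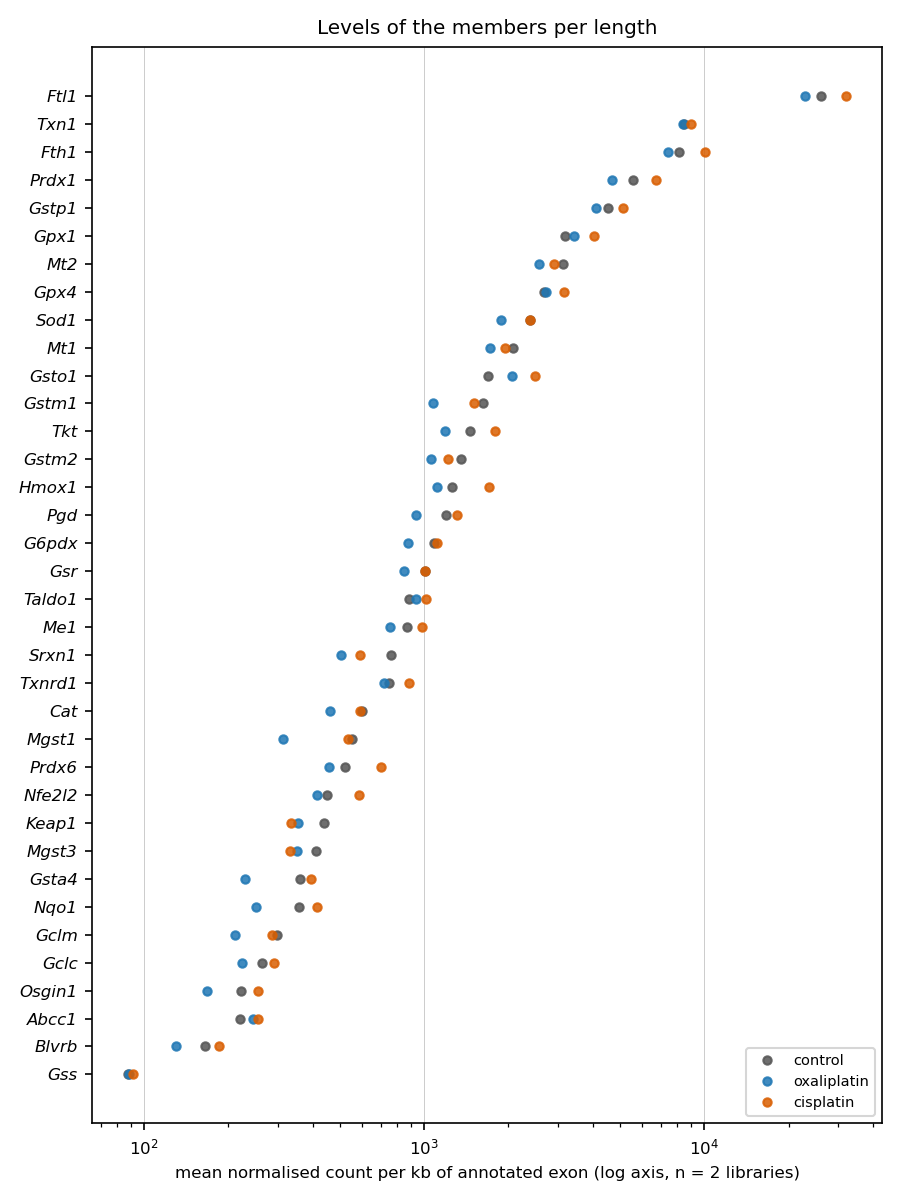
Mean normalised count per kb of annotated exon (log axis) of each member in control, oxaliplatin and cisplatin cells, ordered by the control level, n = 2 libraries for each point. Levels without drug run from 87.8 for Gss to 26160.5 for Ftl1, and the metallothioneins Mt2 and Mt1 rank 7 and 10.

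The metallothionein genes Mt1 and Mt2 lie side by side on chromosome 8 (Mt2, chromosome 8, 94172664 to 94173568; Mt1, chromosome 8, 94179082 to 94180327). Metal response elements, to which MTF1 binds, were searched by their core, TGCACNC or TGCGCNC. Within the 300-base windows it was found at 4 places for Mt2 and 3 places for Mt1 on either strand, beside 0.355 on average over all windows, of which 25.7% held at least 1 (members, 6 of 30 windows). Of the other members, Gclm held 3 matches, G6pdx 2, and Srxn1 and Gstm1 1 each. The 250 bases before the RefSeq start are printed for Mt1 and Mt2, with the matches that lie in them in capitals (reverse-strand matches appear as their complement).
Mt1 (chr8:94178839-94179088, plus strand): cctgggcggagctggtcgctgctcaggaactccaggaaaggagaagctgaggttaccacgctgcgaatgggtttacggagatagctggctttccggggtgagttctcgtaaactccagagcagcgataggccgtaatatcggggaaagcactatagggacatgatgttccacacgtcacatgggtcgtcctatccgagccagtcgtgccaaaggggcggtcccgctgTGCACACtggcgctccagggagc
Mt2 (chr8:94172368-94172617, plus strand): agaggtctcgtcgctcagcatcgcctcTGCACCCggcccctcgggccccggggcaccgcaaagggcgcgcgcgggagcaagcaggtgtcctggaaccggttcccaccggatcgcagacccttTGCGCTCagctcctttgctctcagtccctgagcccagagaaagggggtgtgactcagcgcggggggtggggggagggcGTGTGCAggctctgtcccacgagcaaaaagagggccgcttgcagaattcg
Counted from the RefSeq start, the other 2 matches of Mt1 begin 3 and 21 bases into the transcribed side. The other match of Mt2 begins 5 bases into it. The GENCODE start of Mt2 lies 46 bases from the RefSeq start, and this match lies before it. Where transcription begins in these cells was not tested.

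Mt1 had normalised counts of 2764 and 2392 without drug, 2115 and 2176 with oxaliplatin and 2430.2 and 2401 with cisplatin, and Mt2 had 1896 and 1780.3 without drug, 1519.7 and 1494 with oxaliplatin and 1773 and 1658 with cisplatin. Both genes were lowest in oxaliplatin cells, where the libraries did not overlap with the other groups, while cisplatin libraries reached into the range of control for Mt1 and lay just below it for Mt2. With oxaliplatin Mt1 changed by -0.27 ± 0.078 (DESeq2 adjusted p = 0.00471) and Mt2 by -0.29 ± 0.076 (adjusted p = 0.00130), and both calls were lost without control replicate 1 or without either oxaliplatin library (adjusted p up to 0.230 and 0.0960). With cisplatin neither was called by DESeq2 or edgeR, and neither had an unadjusted p under 0.05, but Mt2 was called lower once the trend with transcript length and GC content was removed (adjusted p = 0.0188). Their log2 fold changes were -0.094 ± 0.078 and -0.099 ± 0.075, with 95% intervals of -0.25 to 0.059 and -0.25 to 0.049, so that a rise of the size seen for Hmox1 lay outside both intervals. The drugs differed by -0.17 for Mt1 (95% interval -0.33 to -0.017, adjusted p = 0.0965) and by -0.19 for Mt2 (interval -0.34 to -0.038, adjusted p = 0.0547). Neither passed the threshold in DESeq2 (both had an unadjusted p under 0.05), and edgeR's quasi-likelihood test called Mt2 lower in oxaliplatin cells. DESeq2 on the 4 drug libraries alone called Mt1 lower (adjusted p = 0.0455).

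A wider list of 88 thiol, iron, NADPH and metal genes was written by hand, 87 of which had 1 gene identifier. Of the 78 tested, oxaliplatin against control called 9 higher and 23 lower, cisplatin against control 21 higher and 7 lower, and oxaliplatin against cisplatin 4 higher and 24 lower. The shares called higher and lower were 11.5% and 29.5% with oxaliplatin (all genes, 10.7% and 9.5%), 26.9% and 8.97% with cisplatin (15.7% and 12.4%) and 5.13% and 30.8% between drugs (8.62% and 11.3%). The share higher with oxaliplatin was near that of all genes, and the share higher with cisplatin near the 26.2% of genes at least as abundant as the least abundant member. The latter genes are more abundant than the wider list. Mean counts had a median of 1312 in them, 642 in the wider list and 481 in all genes tested. The medians of the log2 fold changes of the wider list were -0.16, 0.074 and -0.20. The counts of called wider-list genes fell by more than 1.5 times when libraries were left out. They were 14 to 18 with oxaliplatin over all 6 choices of the library, 17 without control replicate 2 and 14 without cisplatin replicate 1 with cisplatin, and between drugs 12 and 13 without oxaliplatin replicate 1 or 2 and 11 and 16 without cisplatin replicate 1 or 2.

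Slc7a11, the cystine importer subunit that limits glutathione synthesis, had normalised counts of 612 and 698 without drug, 353 and 329 with oxaliplatin and 834 and 758 with cisplatin. The 3 groups did not overlap, and oxaliplatin cells held the lowest level. Its log2 fold change was -0.94 ± 0.13 with oxaliplatin (DESeq2 adjusted p = 2.28e-11) and 0.28 ± 0.12 with cisplatin (adjusted p = 0.0678, not called by DESeq2), and the drugs differed by -1.22 ± 0.13 (adjusted p = 3.50e-19). With cisplatin Slc7a11 was called higher by edgeR's quasi-likelihood test, when 10 counts were asked for in each of the libraries, and once the trend was removed with transcript length and GC content (log2 fold change 0.41) or with gene span (0.68, adjusted p = 1.3e-07). Its partner subunit gene Slc3a2 had 4754 and 4556 without drug, 4730.1 and 4653 with oxaliplatin and 6173 and 6206 with cisplatin, with control and oxaliplatin overlapping and cisplatin higher (0.41 ± 0.046, adjusted p = 3.19e-17). Sqstm1, whose product p62 binds KEAP1, had 9091 and 8587 without drug, 7421 and 7678 with oxaliplatin and 10692 and 10719 with cisplatin. It was lowest with oxaliplatin (-0.23 ± 0.044, DESeq2 adjusted p = 3.61e-06) and highest with cisplatin (0.28 ± 0.044, adjusted p = 4.51e-09), and the drugs differed by -0.50 (adjusted p = 2.19e-28).

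Txnip, the thioredoxin-interacting protein gene, rose in both drug groups. Its counts were 2643 and 2732 without drug, 3829.5 and 3841 with oxaliplatin and 5615 and 5516 with cisplatin, a log2 fold change of 0.51 ± 0.051 with oxaliplatin (DESeq2 adjusted p = 5.77e-22) and 1.05 ± 0.050 with cisplatin (adjusted p = 3.28e-95). It was lower with oxaliplatin than with cisplatin (-0.54 ± 0.049, adjusted p = 3.41e-26). The transferrin receptor gene Tfrc rose in both as well, from 6136 and 6542 to 10559 and 10579.6 with oxaliplatin (0.74 ± 0.048, adjusted p = 7.72e-51) and 9431 and 9961 with cisplatin (0.61 ± 0.048, adjusted p = 3.40e-35). Idh1, the cytosolic NADP-dependent isocitrate dehydrogenase, fell in both, from 1878 and 1887 to 947 and 984 with oxaliplatin (-0.96 ± 0.085, DESeq2 adjusted p = 3.06e-27) and 1320.5 and 1183 with cisplatin (-0.59 ± 0.084, adjusted p = 7.32e-11). Bach1, the repressor of Hmox1, had a log2 fold change of -0.26 ± 0.090 with oxaliplatin (adjusted p = 0.0214), a call lost without any 1 library (adjusted p up to 0.292), and -0.11 ± 0.090 with cisplatin (adjusted p = 0.371, not called). Mtf1, the metal-sensing factor, had 529 and 509 without drug, 528 and 541 with oxaliplatin and 559.8 and 670.2 with cisplatin and was not called by DESeq2 in any contrast (adjusted p = 0.871 with oxaliplatin, 0.150 with cisplatin and 0.277 between drugs). With cisplatin Mtf1 was called higher by edgeR's quasi-likelihood test (adjusted p = 0.0445) and after removal of the trend with transcript length and GC content (adjusted p = 0.0144).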

How the data were processed

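Poly(A) RNA of 6 TRAMP-C2 libraries (2 control, 2 oxaliplatin, 2 cisplatin) was sequenced after a stranded library preparation. The table the authors deposited holds RSEM expected counts, in which a read that fits several genes is shared among them, with no scaling between libraries. The submitters' processing notes name STAR 2.5.3a, RSEM 1.3.0 and genome build GRCm38.p6 without roles, the study's methods name another counting program, and whether counting used strand is not given in the sources used here. Fractions stood in 7977 to 8235 entries of each library, and all values were rounded. Of the 54446 identifiers 54409 matched GENCODE M21 (GRCm38), 53229 of them in the same version.

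A gene was tested when 2 or more libraries held 10 or more counts (14956 genes). DESeq2 1.42.0 (R 4.3.3) took all 6 libraries in 1 model by group, with median-of-ratios size factors (0.964 to 1.08), two-sided Wald tests and fold changes without shrinkage. P values were Benjamini-Hochberg adjusted within a contrast over the genes that passed independent filtering (set at 0.1), and a gene was called under 0.05. In the 3 contrasts 2900, 1740 and 2900 of the 14956 genes had no adjusted p and stay in the shares of all genes. Of the 78 wider-list genes tested these were 9, 4 and 9, and no member was among them. Normalised counts were divided by the size factor. The level of 3 counts covers counting error only. Levels between genes were compared per kb of the union of annotated exons, which retained introns can lengthen.

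The mean chi-square between replicates was 5.60 without drug, 3.14 with oxaliplatin and 3.10 with cisplatin over 10731 genes, more than sampling noise gives. On simulated data for oxaliplatin against control, with 200 genes changed, DESeq2 recovered 32% at a log2 change of 0.3 (14658 genes), 66.5% at 0.5 (14640 genes) and 97.5% at 1 (14637 genes). Of its calls there 11 of 75, 13 of 146 and 14 of 209 were false, above the nominal rate, as were 21 of 86 for edgeR at 0.3. Alternatives were edgeR 4.0.16, other scalings and filters, the 4 libraries compared alone, a replicate block and each library left out in turn. Loess removal (span 0.5) of trends with transcript length and GC content or with gene span, and blocks within the 4 drug libraries, were added after seeing the data. Members, lists, markers and the naming rule were chosen with earlier results of these data known. All 36 members are named, and from the wider list the 3 called genes with the smallest adjusted p in each contrast plus Slc7a11, Sqstm1, Bach1 and Mtf1. Nnt, a listed gene with 2 overlapping identifiers, was not used. Some of the markers are not reported here.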

Additional observations from a re-analysis of the deposited data

How the results depend on the processing

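The number of called members stayed within 1.5 times its value under every alternative except the loss of a library. It was 21 to 29 with oxaliplatin, 17 to 21 with cisplatin and 24 to 29 between drugs, and with 1 library left out 15 to 22, 14 to 17 and 22 to 26. A lone library left in a group was then assumed to vary like the other groups. For the wider list the ranges with 1 library left out were 14 to 18, 14 to 21 and 11 to 23. Over single genes, 2001 of the alternative values kept direction and call, 147 lost the call, 29 gained it and 23 changed sign.

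The changes of sign were all in genes not called. With total-count scaling the log2 fold change was -0.0058 for Gss and -0.00211 for Slc3a2 with oxaliplatin and -0.047 for Gsr and -0.018 for G6pdx with cisplatin. For Gsr with cisplatin it was -0.00453 by edgeR, -0.00454 with TMM scaling and -0.030 without the trend with length and GC content. For Sod1 with cisplatin it was 1.7e-05 with at least 10 counts in every library and 0.015 without that trend. With 1 library left out the ranges with oxaliplatin were -0.0558 to 0.031 for Txn1, -0.046 to 0.059 for Gss, -0.016 to 0.23 for Gpx1, -0.020 to 0.063 for Gpx4 and -0.016 to 0.045 for Slc3a2. With cisplatin they were -0.014 to 0.016 for Gsr, -0.065 to 0.013 for Cat, -0.0342 to 0.033 for Sod1 and -0.19 to 0.013 for Mt1. Gpx1 was called without control replicate 1 (adjusted p = 0.00232), and the other values were not.

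The titles of libraries in different groups share only a replicate number, which does not tell whether they were paired. The differences between replicates correlated by 0.0715, -0.0477 and -0.191 for the 3 pairs of groups. Such values cannot decide whether libraries were paired. With the replicate block 18 wider-list genes were called with oxaliplatin and 16 between drugs, and over all genes 1958, 2833 and 1861 in place of 3028, 4203 and 2977. Within the 4 drug libraries the block gave 10 wider-list genes and 1238 genes in all, and the crossed pairing 10 and 1256. edgeR called 4618, 6112 and 4773 genes. The replicate block over all libraries took away the oxaliplatin calls against control of Hmox1, Blvrb, Prdx6, Gstp1, Abcc1, Fth1 and Bach1. It also took away the cisplatin call of Taldo1 and, between drugs, the calls of Srxn1, Gstm2 and Tfrc. The block within the 4 drug libraries took away the calls of Blvrb, Srxn1, Gclc, Gstm2, Idh1 and Tfrc between drugs. The cause of these differences was not tested. In the simulated data DESeq2 recovered 32% of log2 changes of 0.3. Some abundant members were called at smaller changes, as Prdx1 (-0.25) and Ftl1 (-0.19) with oxaliplatin. Other calls of this size, such as that of Prdx6 with oxaliplatin (-0.18), were lost when a library was left out.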
